A study of Homo sapiens with 8 samples.

Results

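ERF and 9 other transcription factors of the ETS family were followed across 4 treatments of an NSCLC adenocarcinoma line, that is, human lung tumour cells grown in culture and not named in the labels. ETS factors share a DNA-binding domain that recognises a GGAA core, and many of them are the nuclear end of the RAS-ERK pathway. ERF is a repressor: active ERK phosphorylates it and drives it out of the nucleus, and when ERK signalling falls it returns and silences ETS target genes. ETV1, ETV4 and ETV5 form the PEA3 group of activators, which ERK signalling switches on and which lung tumours can use for growth and invasion. ETS1 and ETS2 are the founding members and are also ERK substrates. ELF1 and ELF2 are broadly expressed, whereas ELF3 and SPDEF are epithelial factors of airway and glandular cells.

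Cells received the control treatment, 1 µM rosiglitazone, 10 µM carboplatin or both drugs for 24 h, with 2 arrays in each group and 8 in all. Rosiglitazone is a ligand of the nuclear receptor PPARγ, carboplatin crosslinks DNA, and the title of the series names synergy between these classes of drug as its subject. The control group is labelled DMSO or control, and the doses within the combination are not restated. No label states that paired arrays came from separate cultures, so p-values cover the spread among these arrays alone, and that spread may be technical.

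The 10 genes are among 11963 with a symbol of their own on the array. The members were all probe sets of the Affymetrix array annotated with exactly 1 of the 10 gene symbols, dim ones included, which gave 24 of 22283 probe sets. ERF was chosen by measured values, its level above control in each drug group in earlier results of these data, and the other genes were added as its relatives. The differences of ERF from control are therefore a description and carry no test here. Of the 24 probe sets, 20 passed a filter at the 40th percentile of mean log2 signal, and the 4 dim ones read ETV1 (2 probe sets), ELF2 and SPDEF. Of the epithelial markers 5 of 6 passed the filter. Their median signals over the 8 arrays were 2907 for KRT7, 2090 for KRT8, 5051 for KRT18, 165 for KRT19 and 97.2 for CDH1, while EPCAM lay at 13.8. These genes speak to an epithelial cell and not to the lung or adenocarcinoma part of the label. Of the lung adenocarcinoma markers, SFTPB (47.4) and SFTPC (49.2) passed, at about the level of the median probe set, and NKX2-1, at a median signal of 8.27, did not. Of the markers of other cells, 0 of 3 endothelial, 1 of 3 leukocyte, 2 of 4 fibroblast and 1 of 2 neuroendocrine genes passed. They were CD3E (47.4), COL1A1 (131), DCN (42.9) and CHGA (29.85), so passing the filter does not by itself mark a cell type. Median signals of the arrays ran from 36.2 to 54.3, with 45.8 and 36.2 on the control arrays.

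The ERF gene lies on chromosome 19 at 42247569 to 42255128 in GRCh38.p14, and the array reads it with 1 probe set, 203643_at. RefSeq's promoter table of that build, which covers 250 bases before to 50 after each start, held 3 promoters of ERF, and they are printed because ERF is the gene around which the members were gathered. Capitals mark each GGAA core or its complement TTCC.
ERF promoter at chr19:42255079-42255378, minus strand: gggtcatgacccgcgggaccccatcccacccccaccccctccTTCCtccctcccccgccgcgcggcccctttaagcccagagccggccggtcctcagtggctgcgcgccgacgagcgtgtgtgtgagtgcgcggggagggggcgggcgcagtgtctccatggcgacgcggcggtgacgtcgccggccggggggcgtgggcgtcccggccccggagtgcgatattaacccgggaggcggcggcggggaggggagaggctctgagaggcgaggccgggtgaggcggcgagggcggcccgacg
ERF promoter at chr19:42254586-42254885, minus strand: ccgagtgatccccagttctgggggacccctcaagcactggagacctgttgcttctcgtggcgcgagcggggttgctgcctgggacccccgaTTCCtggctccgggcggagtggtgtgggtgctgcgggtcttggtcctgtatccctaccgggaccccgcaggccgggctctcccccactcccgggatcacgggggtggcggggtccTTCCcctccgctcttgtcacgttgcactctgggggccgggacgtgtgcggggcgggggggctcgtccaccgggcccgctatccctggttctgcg
ERF promoter at chr19:42253850-42254149, minus strand: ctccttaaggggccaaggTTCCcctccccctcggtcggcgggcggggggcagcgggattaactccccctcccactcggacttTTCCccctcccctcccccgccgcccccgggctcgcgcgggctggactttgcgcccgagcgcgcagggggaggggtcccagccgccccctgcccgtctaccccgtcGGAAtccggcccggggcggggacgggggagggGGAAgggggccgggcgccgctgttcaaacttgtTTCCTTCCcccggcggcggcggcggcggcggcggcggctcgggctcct

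These ERF promoters were rich in G and C, at 77.0%, 71.0% and 77.3% in the order printed, against a median of 58.7% over all 35116 promoters of the table. They held 1, 2 and 6 matches to GGAA on either strand, a core that 95.5% of all promoters hold at least once. The full ETS core CCGGAAGT, which contains GGAA, was present in 4.14% of all promoters and in 0 of the 18 promoters found for 7 of the 10 genes. Both the hexamer AGGTCA, which nuclear receptors bind, and the PPAR direct repeat AGGTCANAGGTCA that is built from it were missing from the ERF windows. The hexamer occurred in 13.8% of all promoters and in 1 of the 18, at ELF1, and the repeat in 0.0228% and in 0. The 10-base p53 response-element unit had 1 match in the 18 member promoters, in the last ERF window printed, where it begins 6 bases before the start and overlaps a TTCC. That unit occurred in 6.63% of all promoters. Matches on both strands were counted, and a match describes the letters of the window only.

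The ERF signal was 123 and 66.6 on the control arrays and 205 and 336 on the rosiglitazone arrays, on the deposited linear scale. It was 260 and 308 on the carboplatin arrays and 232 and 351 on the combination arrays. All 6 drug-treated arrays were above both control arrays, and the control arrays also differed most from each other as a ratio. After quantile normalization the log2(signal + 16) level was 6.82 ± 0.27 (SD, n = 2) in control, 7.94 ± 0.21 with rosiglitazone, 8.22 ± 0.02 with the combination and 8.36 ± 0.08 with carboplatin. In bulk RNA, more expressing cells and more RNA per cell cannot be told apart.

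**Figure D1:**
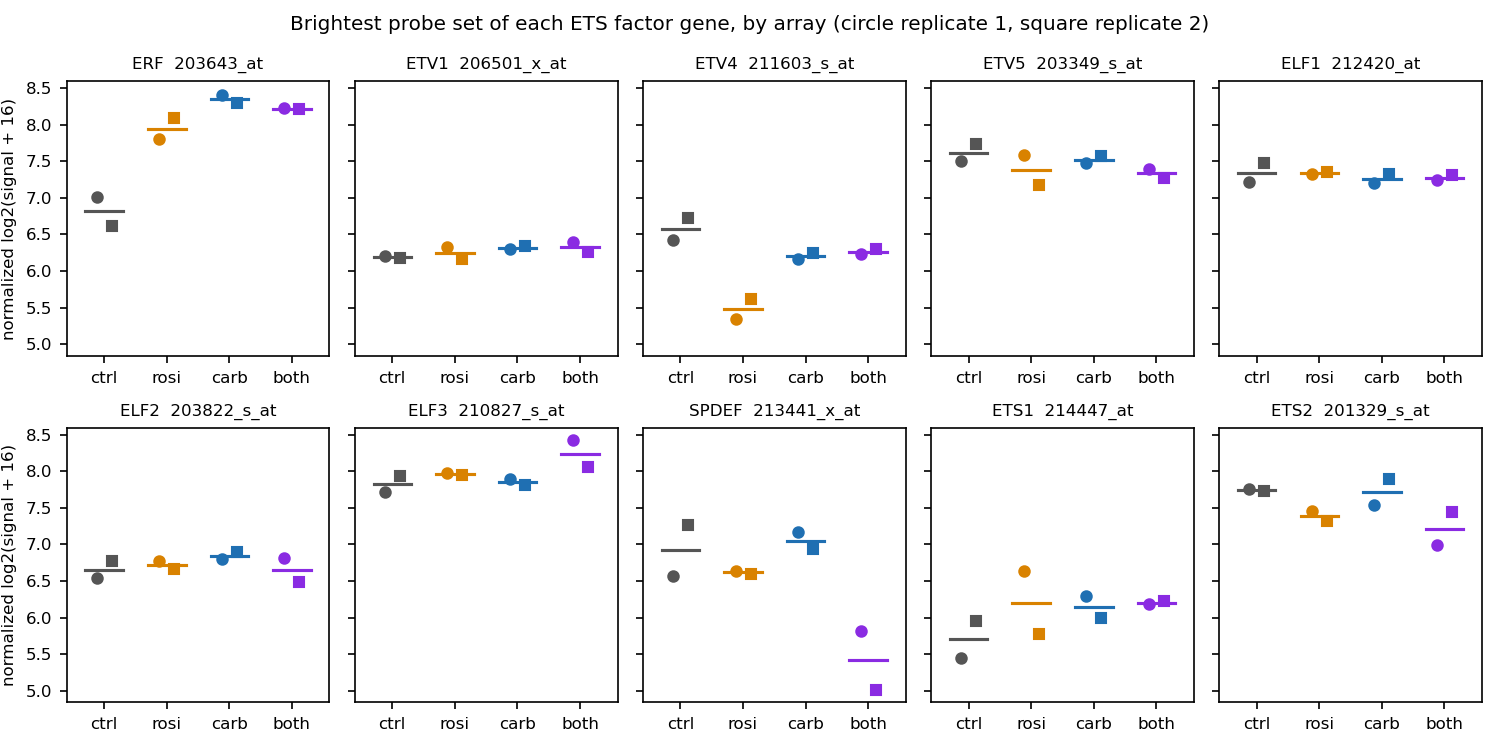
Log2(signal + 16) after quantile normalization on each of the 8 arrays for the brightest probe set of each of the 10 genes, with points for the 2 arrays of a group and a bar at their mean. ERF stands at 6.62 and 7.01 in control and between 7.80 and 8.41 on every treated array, and ETV4, which is below control throughout, is the only other gene here whose 3 drug groups all avoid overlap with control.

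On the same log2 scale ERF exceeded control by 1.12 ± 0.18 (SE) with rosiglitazone, 1.54 ± 0.18 with carboplatin and 1.40 ± 0.18 with both, which are 2.18-fold, 2.90-fold and 2.64-fold differences. These 3 values share the control arrays and are the values on which ERF was chosen. Leaving out control array 2, the lower one, made them 0.93, 1.34 and 1.20, and leaving out control array 1 made them 1.31, 1.72 and 1.59. Control array 2 was also the dimmest of the 8, with a median signal of 36.2, and with array brightness as a covariate the values were 1.02, 1.54 and 1.36. The separate differences summed to 2.66 where the combination gave 1.40, a shortfall of 1.26 ± 0.25 (log2 interaction of -1.26). Averaged over the other drug, the difference was 0.49 ± 0.12 for rosiglitazone and 0.91 ± 0.12 for carboplatin.

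Contrasts between drug groups do not use the control level, and there ERF did not pass the threshold. The choice of ERF did use its level in each drug group, so these contrasts are not free of that choice. Likeness of the drug groups is not read from them. The combination differed from carboplatin by -0.14 ± 0.18 (95% interval -0.52 to 0.25, limma adjusted p = 0.964) and from rosiglitazone by 0.27 ± 0.18 (-0.11 to 0.66, adjusted p = 1.00). Carboplatin exceeded rosiglitazone by 0.41 ± 0.18 (0.03 to 0.80, adjusted p = 0.688), and its arrays lay above both rosiglitazone arrays. In the order control, rosiglitazone, combination, carboplatin, no step above control was separated by a test, and the intervals allow differences of up to 0.66 between neighbours.

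**Figure D2:**
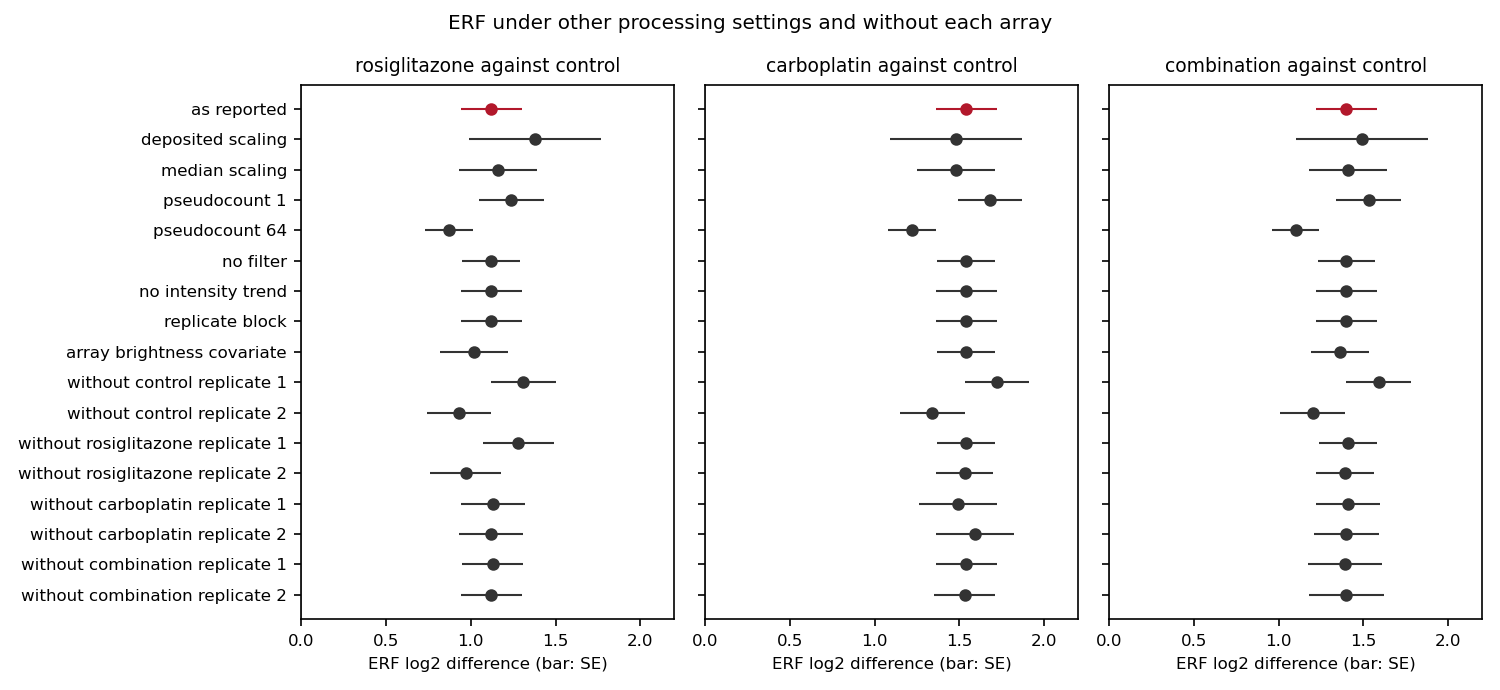
The log2 difference of ERF from control in each of the 3 drug groups as reported and under the 16 alternative settings, with a point per setting, SE bars and the reported value in red. The values run from 0.87 to 1.38 for rosiglitazone, 1.22 to 1.72 for carboplatin and 1.10 to 1.59 for the combination.

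In limma with Benjamini-Hochberg adjustment over 13338 probe sets, 1 of the 20 members tested was called at 0.05 in each contrast with control, and it was ERF each time. The background was 0.36% of all probe sets with rosiglitazone, 0.015% with carboplatin and 0.225% with the combination. Nothing is read from this count, since the choice of ERF used these contrasts. None of the other 19 was called. At an unadjusted p under 0.05, ERF included, 2, 1 and 9 of the 20 passed in the same contrasts, against 10.4%, 5.17% and 8.42% of all probe sets. In the combination the 9 were ERF, both ELF3 and both ETS2 probe sets, and 1 each of SPDEF and ELF1 with 2 of ETV5. Arrays of the combination lay wholly above or below control for 16 of 20 members, ERF included, against 36.8% of all probe sets, with 8 above (background 17.3%) and 8 below (19.5%). Without ERF these counts were 15 of 19, with 7 above and 8 below. The same held for 9 of 20 with rosiglitazone (background 42%) and 9 of 20 with carboplatin (35.1%), and for 8 of 19 in each without ERF. Among the members above control in the combination, SPDEF 214403_x_at passed the filter only through its arrays with rosiglitazone. The median difference of the 19 members without ERF was -0.105 with rosiglitazone, 0.022 with carboplatin and -0.06 with the combination, beside -0.012, -0.007 and -0.012 over all probe sets.

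**Figure D3:**
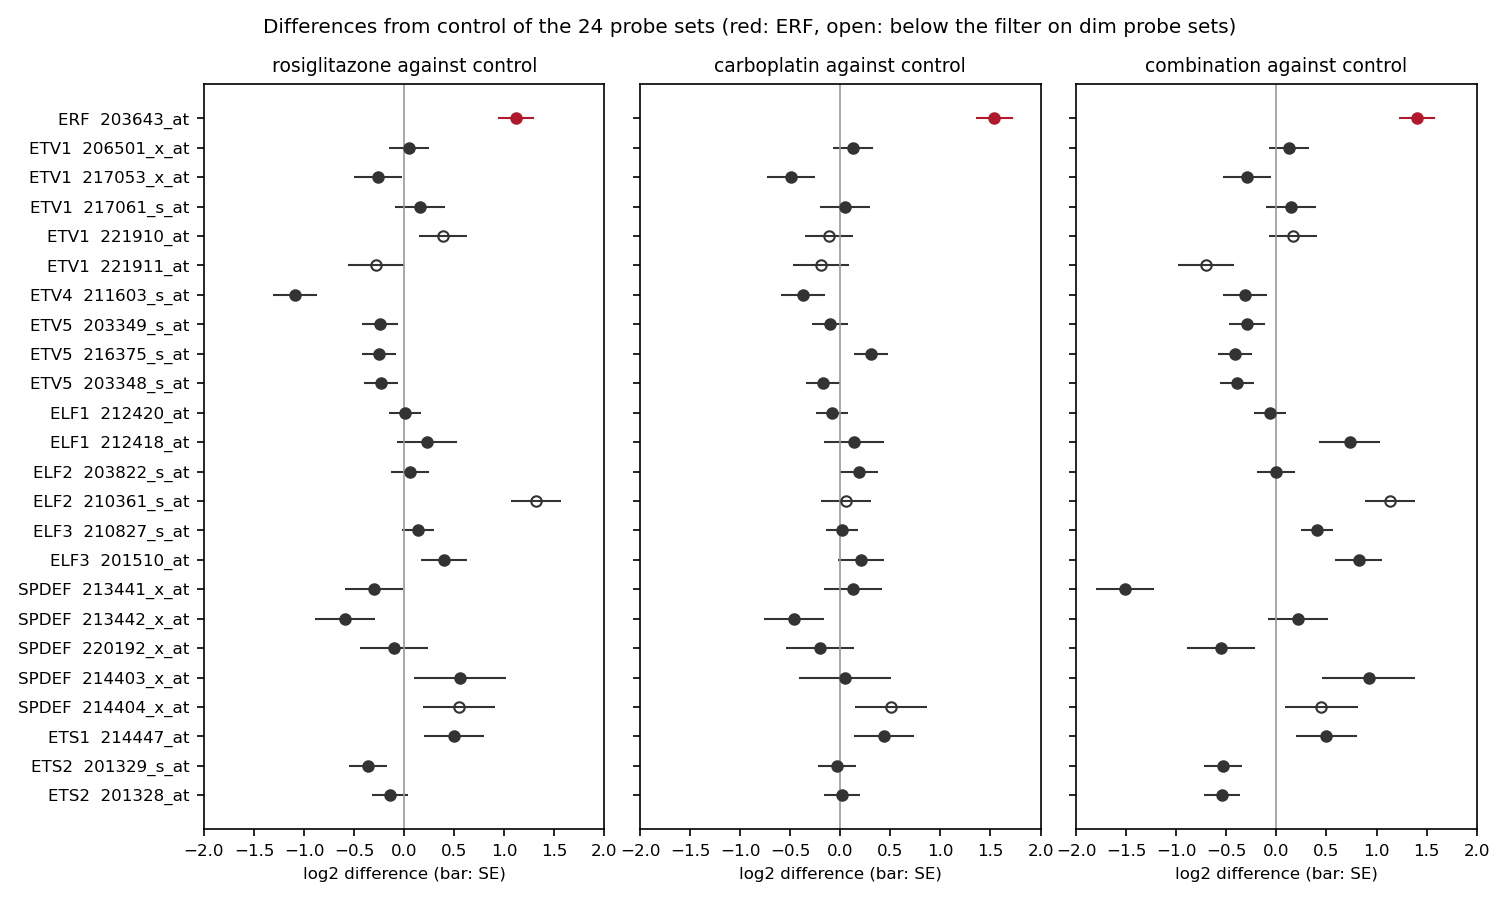
Log2 difference from control of all 24 member probe sets with rosiglitazone, carboplatin and the combination, with SE bars; ERF is red and open points are the 4 probe sets below the filter. ERF lies at 1.12, 1.54 and 1.40, ETV4 at -1.09 with rosiglitazone and the brightest SPDEF probe set at -1.51 with the combination.

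Among the PEA3 activators, ETV4 was lowest with rosiglitazone alone. The gene lies at chr17:43527846-43546340 and is read by 1 probe set, 211603_s_at. Its signal was 74.7 and 71.7 in control, 26.9 and 40.8 after rosiglitazone, 46.9 and 61.7 after carboplatin and 49.4 and 77.3 after both drugs. The rosiglitazone arrays were the lowest of the 8, and the combination arrays overlapped control as deposited. The log2 difference from control was -1.09 ± 0.22 with rosiglitazone (95% interval -1.56 to -0.61, adjusted p = 0.0649), just outside the threshold. It was -0.37 ± 0.22 with carboplatin (adjusted p = 0.928) and -0.31 ± 0.22 with both drugs (adjusted p = 0.776). The rosiglitazone difference ran from -1.43 to -0.63 over the alternatives and was called in none of them. The combination exceeded rosiglitazone by 0.78 ± 0.22 (0.30 to 1.25, adjusted p = 1.00), and the interaction was 1.15 ± 0.30 (adjusted p = 0.821).

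ETV5 (chr3:186046314-186109089) is read by 3 probe sets, all above the filter. On 216375_s_at the log2 level was 7.30 and 7.15 in control, 6.87 and 7.07 on the rosiglitazone arrays, 7.60 and 7.48 on the carboplatin arrays and 6.79 and 6.84 on the combination arrays. The 4 arrays with rosiglitazone all lay below the 4 without it. The rosiglitazone main effect, the mean of the differences without and with carboplatin, was -0.49 ± 0.12 (adjusted p = 0.108), and the combination lay below carboplatin by -0.72 ± 0.17 (-1.09 to -0.35, adjusted p = 0.206). The other ETV5 probe sets gave main effects of -0.21 ± 0.13 on 203349_s_at and -0.23 ± 0.12 on 203348_s_at (adjusted p = 0.662 and 0.602). All 3 therefore had the same sign, and none passed the test.

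ETV1 (chr7:13891229-13991425) has 5 probe sets, and 3 passed the filter. Its brightest, 206501_x_at, stayed between 6.16 and 6.39 on every array, with differences from control of 0.05, 0.13 and 0.13 (SE 0.20). Both 206501_x_at and 217053_x_at carry the mark x, which means that some probes can also bind other transcripts. On 217053_x_at carboplatin differed from control by -0.49 ± 0.24 (adjusted p = 0.927), and on 217061_s_at the 3 differences were 0.16, 0.05 and 0.15 (SE 0.25). The dim probe sets went opposite ways with rosiglitazone, 0.39 ± 0.24 on 221910_at and -0.28 ± 0.28 on 221911_at. Nothing in the 5 readings of ETV1 was common to them.

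ETS2 (chr21:38805183-38824955) was read alike by its 2 probe sets in the combination. On 201329_s_at the log2 levels were 7.76 and 7.73 in control, 7.45 and 7.32 after rosiglitazone, 7.54 and 7.89 after carboplatin and 6.99 and 7.44 with both drugs. On 201328_at they were 7.60 and 7.43, 7.17 and 7.59, 7.50 and 7.56, and 6.93 and 7.02 in the same order. The combination arrays lay below both control arrays on each probe set, and carboplatin alone overlapped control. The combination differed from control by -0.53 ± 0.19 (adjusted p = 0.461) and -0.54 ± 0.18 (adjusted p = 0.407), and carboplatin by -0.03 ± 0.19 and 0.02 ± 0.18. ETS1 (chr11:128458765-128587558), read by 214447_at alone, stood at 5.45 and 5.95 in control, 6.64 and 5.77 after rosiglitazone, 6.29 and 5.99 with carboplatin and 6.18 and 6.23 with both. Its differences of 0.50, 0.44 and 0.50 (SE 0.30; adjusted p = 0.600, 0.928 and 0.716) were no larger than the spread of the rosiglitazone arrays.

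ELF3 (chr1:202010587-202017183), an epithelium-specific activator, was highest in the combination on both of its probe sets. On 201510_at the log2 levels were 6.07 and 6.56 in control, 6.53 and 6.90 after rosiglitazone, 6.35 and 6.69 with carboplatin and 7.04 and 7.22 with both. On 210827_s_at they were 7.72 and 7.94, 7.98 and 7.95, 7.89 and 7.81, and 8.42 and 8.06. The combination arrays exceeded all other arrays on both. The difference from control was 0.82 ± 0.23 (adjusted p = 0.285) on 201510_at and 0.41 ± 0.16 (adjusted p = 0.531) on 210827_s_at, neither past the threshold. The rosiglitazone main effect was 0.51 ± 0.16 (adjusted p = 0.276) and 0.26 ± 0.12 (adjusted p = 0.488).

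**Figure D4:**
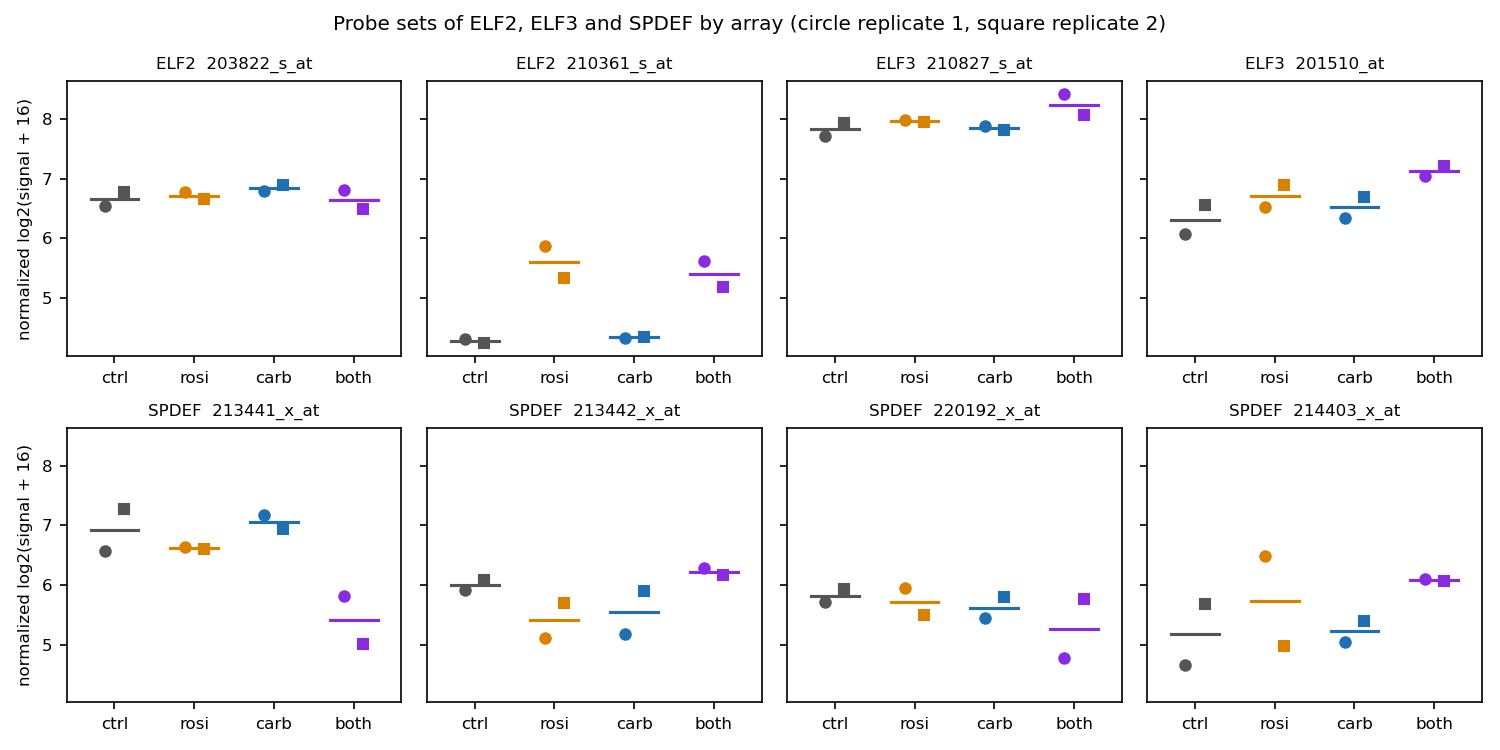
Log2(signal + 16) on each array for 8 probe sets of ELF2, ELF3 and SPDEF, 1 panel per probe set, with groups on the horizontal axis, a point per array and a line at the group mean. The ELF3 probe sets are highest together in the combination, 1 of the ELF2 probe sets is raised on the 4 arrays with rosiglitazone and the other is not, and the SPDEF probe sets go different ways.

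SPDEF (chr6:34537802-34556329), a factor of goblet and other secretory cells, gave readings that disagreed. All 5 of its probe sets carry the mark x, which means that some probes can also bind other transcripts. The brightest, 213441_x_at, had signals of 85.1 and 114 in control, 85.3 and 104 after rosiglitazone, 104 and 110 after carboplatin and 34.6 and 17.8 after both drugs. The combination arrays were the lowest of the 8. After normalization control overlapped both single-drug groups, while the carboplatin arrays lay above the rosiglitazone arrays. The combination differed from control by -1.51 ± 0.29 on the log2 scale (adjusted p = 0.0725) and from carboplatin by -1.63 ± 0.29 (adjusted p = 0.0755), both just outside the threshold. With the deposited scaling these became calls (adjusted p = 0.0277 and 0.0195), as they did with array brightness as a covariate (0.0308 and 0.0283). Over all alternatives the difference from control ran from -1.98 to -0.90. The rosiglitazone main effect was -0.97 ± 0.21 (adjusted p = 0.0641), and without combination array 1 it was -1.18 and called (adjusted p = 0.0251). In the combination against control the other tested probe sets gave 0.22 ± 0.30 (213442_x_at), -0.55 ± 0.34 (220192_x_at) and 0.92 ± 0.46 (214403_x_at). The dim 214404_x_at gave 0.45 ± 0.36 there. On 214403_x_at the mean levels of 5.17 in control and 5.22 with carboplatin lay under the filter cut of 5.38. It passed the filter only through its arrays with rosiglitazone. A direction for SPDEF cannot be given from these readings.

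ELF2 (chr4:139057220-139177915) also split between its probe sets. The dim one, 210361_s_at, had signals of 3.93 and 2.69 in control and 3.78 and 4.05 with carboplatin, but 44.8 and 29.8 with rosiglitazone and 28.9 and 22.9 with both drugs. All 4 arrays with rosiglitazone lay above all 4 without it, as they did for 4.92% of all probe sets in either direction. It lay below the filter, at percentile 28.1 of mean level. Fitted without the filter over 22215 probe sets, its rosiglitazone main effect was 1.20 ± 0.18 on the log2 scale (adjusted p = 0.0392), where 0.32% of probe sets were called. Its differences were 1.32 ± 0.25 for rosiglitazone against control (adjusted p = 0.190) and 1.07 ± 0.25 for the combination against carboplatin (adjusted p = 0.422). With any 1 array left out the main effect was 1.05 to 1.31 and no longer a call (adjusted p = 0.0788 to 0.199), and the pseudocount moved its size, to 2.65 with 1 and to 0.47 with 64 (adjusted p = 0.0275 and 0.0758). Among the other settings run without the filter it was called only with the pseudocount of 1 and with the replicate block. The brighter probe set, 203822_s_at, had levels of 6.54 and 6.77 in control, 6.77 and 6.66 after rosiglitazone, 6.80 and 6.89 with carboplatin and 6.81 and 6.49 with both. Its main effect was -0.06 ± 0.14 (-0.36 to 0.23, adjusted p = 0.935), so the higher signal was not shared.

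ELF1 (chr13:40931919-41061386) was level on its brighter probe set, 212420_at, between 7.20 and 7.47 on every array. Its differences from control were 0.01, -0.08 and -0.06 (SE 0.16), and the 95% intervals reach from -0.44 to 0.37. The dimmer 212418_at differed by 0.73 ± 0.30 in the combination (adjusted p = 0.534), with control arrays at 6.18 and 5.24.

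For the rosiglitazone main effect, 3 of 20 members separated all 4 arrays with the drug from all 4 without it, against 6.15% of all probe sets. They were ELF3 210827_s_at, which was higher, and ETV5 216375_s_at and ETS2 201329_s_at, which were lower. None was called, where 0.885% of all probe sets were. For the carboplatin main effect 1 of 20 separated in this way (background 2.36%) and 1 of 20 was called (background 0.03%), ERF in both cases. That effect contains the difference from control on which ERF was chosen, so nothing is read from either count, and both were 0 of the other 19. Between drug groups 0 of 20 were called, against 0.157% for the combination against carboplatin, 0.0225% for the combination against rosiglitazone and 0.217% for carboplatin against rosiglitazone. At an unadjusted p under 0.05 the numbers were 7, 4 and 3 of 20, against 6.43%, 4.54% and 6.64%, and ERF was among the 3. Arrays did not overlap for 13, 11 and 9 of 20 members in these contrasts, ERF included, against 34.3%, 31% and 35.2% of all probe sets. Without ERF these counts were 12, 10 and 8 of 19. In the interaction 0 of 20 and 0% of all probe sets were called. An unadjusted p under 0.05 was reached by 4 of 20, ERF included, and by 5.97% of all probe sets. The interaction contains the differences from control on which ERF was chosen, so nothing is read from the 4.

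Genes around these factors were taken as 5 lists. Of 18 further ETS genes, 5 could be tested and 0 were called by limma in any contrast, with 0, 1 and 0 at an unadjusted p under 0.05 for rosiglitazone, carboplatin and the combination against control. The named examples are ETV7 at -0.56 ± 0.31 and ELK1, a direct ERK substrate, at 0.30 ± 0.18 in the combination against control. Of 16 genes of the RAS-ERK cascade and CIC, a repressor of the PEA3 group, 10 were tested and 0 called, with 1, 1 and 0 at an unadjusted p under 0.05 in those contrasts. MAPK3, which encodes ERK1, differed from control by -0.56 ± 0.20 with rosiglitazone, -0.69 ± 0.20 with carboplatin and -0.23 ± 0.20 with both (adjusted p = 0.376, 0.879 and 0.830). The list median was -0.10, -0.01 and -0.01 in those contrasts.

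Of 13 tested genes that report ERK output or feed back on it, 10 lay below control in each drug contrast, beside 51.9%, 51.3% and 52.0% of all probe sets, and the 3 contrasts share the control arrays. The list medians were -0.25, -0.11 and -0.22, beside -0.01 over all probe sets in each. At an unadjusted p under 0.05 there were 2, 2 and 3 of 13, and 1 gene was called, with rosiglitazone (background 0.36%). PHLDA1, which encodes a pleckstrin homology-like domain protein, rose with rosiglitazone. Its log2 levels were 8.60 and 8.57 in control, 9.28 and 9.33 after rosiglitazone, 8.64 and 8.54 with carboplatin and 9.04 and 9.22 with both. The 4 arrays with rosiglitazone were above the 4 without. The difference from control was 0.72 ± 0.13 (adjusted p = 0.0431), a call kept in 4 of 16 alternatives and lost when any control, rosiglitazone or carboplatin array was left out (0.70 to 0.75, adjusted p = 0.0696 to 0.278). The main effect was 0.63 ± 0.09 (adjusted p = 0.00548, called in 13 of 16). SPRY2, a feedback inhibitor of RAS-ERK signalling, differed by -0.84 ± 0.26 in the combination (adjusted p = 0.354).

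Of 9 protease genes known to carry ETS sites, 5 were tested and 0 called, and 1, 0 and 0 had an unadjusted p under 0.05 against control. PLAUR, the urokinase receptor, had a rosiglitazone main effect of 0.50 ± 0.11 (adjusted p = 0.0705), while PLAU, which encodes urokinase, had 0.12 ± 0.11 and MMP9 -0.26 ± 0.16. Of 8 genes for the turnover or export of ETS proteins, 6 were tested and 0 called, and 1, 0 and 2 had an unadjusted p under 0.05 against control. XPO1, the exporter of many nuclear proteins, differed by -0.46 ± 0.11 in the combination against control (adjusted p = 0.177), with -0.12 and -0.13 (SE 0.11) for the single drugs.

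The genes with levels most like those of ERF over the 8 arrays were ranked by Pearson correlation among 123 genes whose group means spanned at least 1 log2 unit. They were IGHM (0.909), SND1-IT1 (0.861), CRHR1 (0.846), RAPGEF1 (0.841) and ADAMTS13 (0.823). This is a description: all genes were read on the same arrays and share their scaling. IGHM, CRHR1, RAPGEF1 and ADAMTS13 were dim, with both control arrays under the filter cut of 5.38. They passed the filter on the mean only through the treated arrays, so a low control level is partly set by how they were picked. The log2 level of IGHM was 4.97 and 4.51 in control and 5.48 to 5.92 on the treated arrays, so it was also lower on control array 2. Among the 9 protein-coding genes within 100 kb of ERF, a window chosen after the ERF values were seen, 4 were tested and none overlaps ERF. None was called against control in limma, and 0 of 4 had an unadjusted p under 0.05. The nearest on either side were GSK3A, with differences of 0.13, 0.22 and 0.17 (SE 0.17) in the order rosiglitazone, carboplatin, combination, and CIC, with -0.44, 0.15 and 0.17 (SE 0.27).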

How the data were processed

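Expression was measured on 8 Affymetrix arrays, 2 for each of 4 groups taken from the sample titles. RNA was copied from an oligo-dT primer and labelled with biotin, per the labels' protocols. As deposited, each probe set has 1 intensity value on a linear scale, from 0.032 to 14940.6. How the authors made and scaled these values is not given in the sources used here. Precision is limited by the number of arrays.

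Here log2(signal + 16) was quantile normalized over 22283 probe sets, since array medians spanned 0.43 on that scale, and 68 control probe sets were then dropped. Probe sets with a mean under the 40th percentile (5.38) were left out, which left 13338. The pseudocount of 16 understates differences of dim probe sets. Limma 3.58.1 in R 4.3.3 fitted 1 coefficient per group to all arrays, with an intensity trend and 4 residual and 7.1 prior degrees of freedom. Contrasts were tested two-sided, adjusted over all probe sets tested and called at 0.05. Values for dim members come from the fit without the filter. For a gene of a list, the probe set with the highest mean was used.

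The members and lists were chosen with earlier results of these data known. From each list every called gene, and the 2 of smallest p in each drug's main effect, could be named, and the 5 genes most like ERF. Names come from the annotation of the platform, in which 19071 probe sets have 1 symbol, 1043 several and 2169 none. Alternatives were 2 other scalings, pseudocounts of 1 and 64, no filter, no trend, the replicate number as a block, array brightness as a covariate and leaving out each array. The fit was tested on simulated data. Of 100 changes of 1 log2 unit, 50 were called in rosiglitazone against control and 77 in the rosiglitazone main effect. Of 100 changes of 2 log2 units, 90 and 97 were called, and false calls numbered 4 and 12. A member that was not called may therefore still have changed.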

Additional observations from a re-analysis of the deposited data

Results flagged for a closer look

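The following members moved in opposite directions on both arrays of a drug group depending on whether the other drug was present. The share of all probe sets that did so was not counted, so nothing is read from the number of members. In single contrasts of 2 groups, arrays did not overlap for 31% to 42% of all probe sets. The ERF difference for rosiglitazone was positive without carboplatin and slightly negative with it, and the 2 differ by -1.26 on the log2 scale; since ERF was chosen on contrasts with control, this was not tested. On ETV4 211603_s_at carboplatin gave a lower level without rosiglitazone and a higher one with it, a difference of 1.15 (interaction in limma, adjusted p = 0.821). On ETV5 216375_s_at carboplatin gave a higher level alone and a lower one with rosiglitazone, a difference of -0.47 (adjusted p = 0.831). On ETV1 217053_x_at rosiglitazone gave a lower level alone and a higher one with carboplatin, a difference of 0.47 (adjusted p = 0.885). On SPDEF 213442_x_at each drug alone gave a lower level and each gave a higher one beside the other, a difference of 1.27 (adjusted p = 0.821). No interaction passed the threshold for any of 13338 probe sets in limma, and 5.97% had an unadjusted p under 0.05.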

How the results depend on the processing

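With 2 arrays per group, calls were few and moved with the settings. Probe sets called in rosiglitazone against control numbered 48, and 24 with deposited scaling, 18 after median scaling, 6 with no filter, 6 with no trend and 19 with the brightness covariate. For the combination against control the 30 became 16, 15, 12 and 5 under the first 4 of these, and for the combination against carboplatin the 21 became 9, 8, 6 and 5. The 118 of the rosiglitazone main effect became 64, 61, 71 and 36. Carboplatin against rosiglitazone had 29, and 14 with median scaling, 9 with no filter, 8 with no trend and 15 with the brightness covariate. Carboplatin against control had 2, and 0 under deposited scaling, median scaling, no filter, no trend and the replicate block. Combination against rosiglitazone had 3, and 1 with deposited scaling and 0 with no filter, no trend and the replicate block. The carboplatin main effect had 4, and 1 with deposited scaling and 2 with no filter or no trend.

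ERF was chosen on its differences from control, which the carboplatin main effect also contains. Its calls there therefore carry no test, whether kept or lost. Of the members, the 1 call (ERF) became 0 in rosiglitazone against control with deposited scaling, median scaling, no filter, no trend and the brightness covariate. It became 0 in carboplatin against control with the first 4 and the replicate block, in the combination against control with no trend, and in the carboplatin main effect with all of these and a pseudocount of 1. With deposited scaling the combination against control still had 1 member call, but it was SPDEF (adjusted p = 0.0277) in place of ERF, at 1.49 ± 0.39. Member calls in the combination against control were 2 with the brightness covariate, and 1 member, SPDEF, was called against carboplatin with that covariate or deposited scaling. With no filter 1 member, ELF2, was called in the rosiglitazone main effect. Leaving out 1 array gave 3 to 49, 0 to 2 and 9 to 31 probe sets for rosiglitazone, carboplatin and the combination against control, 4 to 23 and 0 to 3 for the combination against carboplatin and against rosiglitazone, 5 to 21 for carboplatin against rosiglitazone, and 70 to 91 and 2 to 4 for the main effects. Member calls were then 0 to 1 in each contrast with control and in the rosiglitazone main effect, and 0 to 0 in the carboplatin main effect. The ERF call in a contrast with control was lost without control array 2 or without either array of the drug group itself, and for carboplatin also without control array 1. The cause of these changes was not tested. Same-numbered arrays of 2 groups deviated from their group means with correlations of -0.11 to 0.253, so the replicate numbers were not taken to pair the arrays. Over the 13338 probe sets above the filter, normalized arrays of different groups correlated at 0.9643 to 0.9836, beside 0.9738 to 0.9761 within groups. Some arrays were thus closer to an array of another group than to their own partner, and the cause was not tested. A crossed replicate block for control and combination, chosen after seeing the data, gave 47 probe sets and 2 members. None of the probe sets called in any contrast changed sign under these alternatives.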
